A study of Brachypodium distachyon with 24 samples.

Results

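Phenylalanine ammonia-lyase (PAL) genes of the grass *Brachypodium distachyon* were examined together with the lignin gene CAD1 (Bradi3g17920) in leaf RNA-seq of 2 natural accessions and their hybrid. They are 8 PAL genes and CAD1, 9 of the 32439 genes counted. They were listed by identifier. Of the 9, 6 had a count above 0 in more than 10 of the 24 libraries and could be tested.

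PAL removes ammonia from phenylalanine to give cinnamate and so opens the phenylpropanoid pathway, which leads to lignin, flavonoids and other phenolics. Cinnamate 4-hydroxylase (C4H) and 4-coumarate:CoA ligase (4CL) carry out the steps that follow. Cinnamyl alcohol dehydrogenases (CAD) reduce the lignin aldehydes to the alcohols from which lignin is built. Grass PAL families include enzymes that also accept tyrosine, and which of the listed genes encode such enzymes was not analysed here.

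The accessions were Bd21 and Bd3-1, and the F1 came from Bd21 pollen on Bd3-1 flowers. Control plants were kept at 85% of field capacity, the water that the soil holds against gravity, and drought plants were dried to 55% over 6 days from day 33 after sowing. There were 3 Bd21 plants in control and 3 in drought, 5 Bd3-1 plants in control and 3 in drought, and 5 F1 plants in each condition. The F1 plants had a dry-down of their own, apart from the experiment that supplied the parents, so F1 and experiment cannot be told apart, and which of the 5 Bd3-1 control libraries belong to the parents' experiment is not given in the sources used here. Within the F1, drought and control plants came from the same dry-down.

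Libraries held 6905973 to 42354206 counts in total (median 21579369). Levels are normalized counts, that is, counts scaled to the mean effective library size (library size times its TMM factor). They are not scaled by gene length. The leaf label was checked with the chlorophyll a-b binding protein gene Bradi4g31257, whose group means lay between 1225 and 2960. Bradi1g51770, a late embryogenesis abundant (LEA) gene of the drought response, was higher in drought in all 3 genotypes, from a mean of 76.2 to 1563 in Bd21, from 16.9 to 708 in Bd3-1 and from 28.1 to 1594 in the F1. The leaf is a mixture of cells, so fewer cells of a type and less RNA per cell cannot be told apart.

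Most PAL reads came from few genes. Bradi3g49260 took a median of 75.2% of the counts of the PAL family, from 45.8% in F1 control replicate 1 to 82.5% in Bd3-1 drought replicate 2. Bradi3g49250 took a median of 16.0% (6.56% to 42.8%) and Bradi5g15830 a median of 7.95% (3.83% to 21.4%). These are shares of reads and depend on gene length. Bradi3g49280 had 802 reads over 21 libraries and Bradi3g48840 had 1256 over 22. Bradi3g47110 had 39 reads, of which 37 were in F1 control replicate 4, and Bradi3g49270 had 6, all in Bd21 drought replicate 1. Bradi3g47120 had 0 in all 24 libraries. A count of 0 allows, at 3 counts, between 0.0708 and 0.434 CPM (counts scaled to the library total), depending on the library, which covers counting error only.

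**Figure D1:**
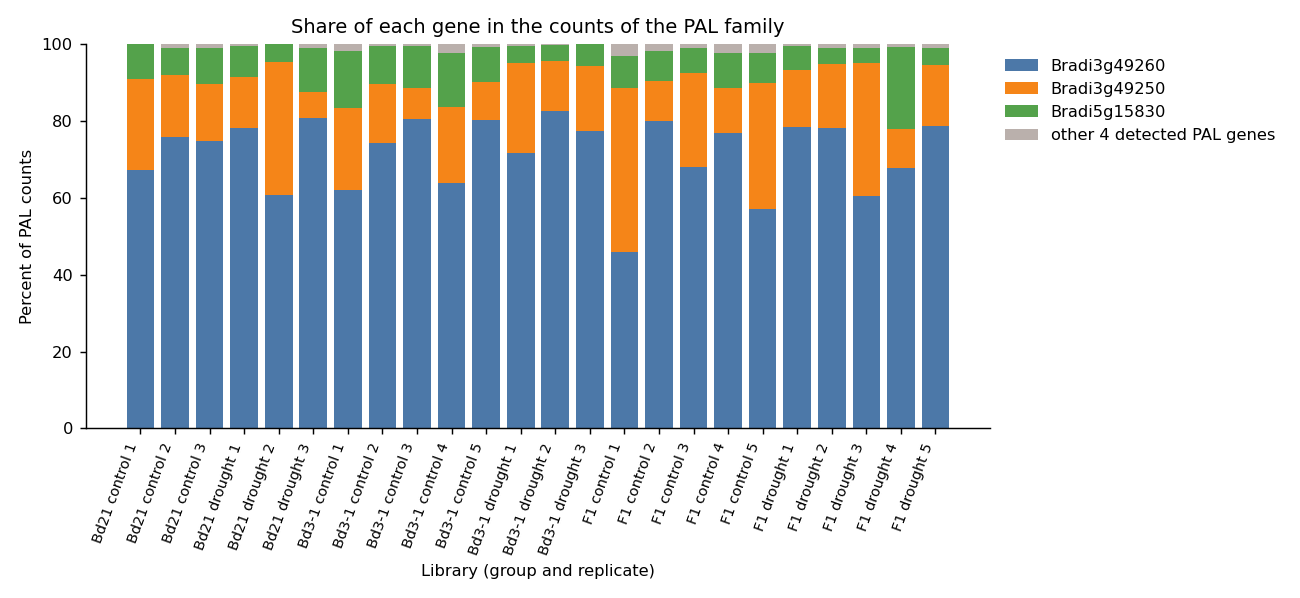
Percent of the counts of the PAL family taken by each gene (vertical axis) in each of the 24 libraries (horizontal axis), as stacked bars that are not scaled by gene length. Bradi3g49260 takes most of the counts in every library but F1 control replicate 1, where it has 45.8%, and Bradi5g15830 reaches 21.4% in F1 drought replicate 4.

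Some reads could not be given to a single PAL gene. The counts of Bradi3g49260 and of Bradi5g15830 were not whole in the same 4 libraries (Bd21 drought replicate 1, Bd3-1 drought replicate 1, F1 drought replicates 1 and 2), whereas their sum was whole in all 24 within a tolerance of 0.001. Reads were thus divided between these genes by the counting, and their separate levels are uncertain. Whole counts in the other libraries do not show that no reads were shared there. Their sum averaged 3830 ± 1243 (SD, n = 5) in F1 control and 10766 ± 4998 (SD, n = 5) in F1 drought.

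Summed over the family, PAL was at a higher mean level in drought than in control in each genotype. The mean was 8507 ± 2582 (SD, n = 3) in Bd21 control and 15006 ± 4570 (SD, n = 3) in Bd21 drought, a ratio of 1.76. In Bd3-1 it was 7183 ± 4447 (SD, n = 5) and 16072 ± 2427 (SD, n = 3), a ratio of 2.24. The F1 had 5145 ± 911 (SD, n = 5) in control and 12976 ± 4970 (SD, n = 5) in drought, a ratio of 2.52, or 2.16 without F1 drought replicate 4. The Bd3-1 control plants spread widest for their mean, from 2609 to 13532, and the highest of them lay above the lowest Bd3-1 drought plant at 13270. The Bd21 groups overlapped too, with control replicate 2 at 10612 and drought replicate 3 at 10454. In the F1 the highest control plant was at 6274 and the lowest drought plant at 7639. No test was made of the sum.

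**Figure D2:**
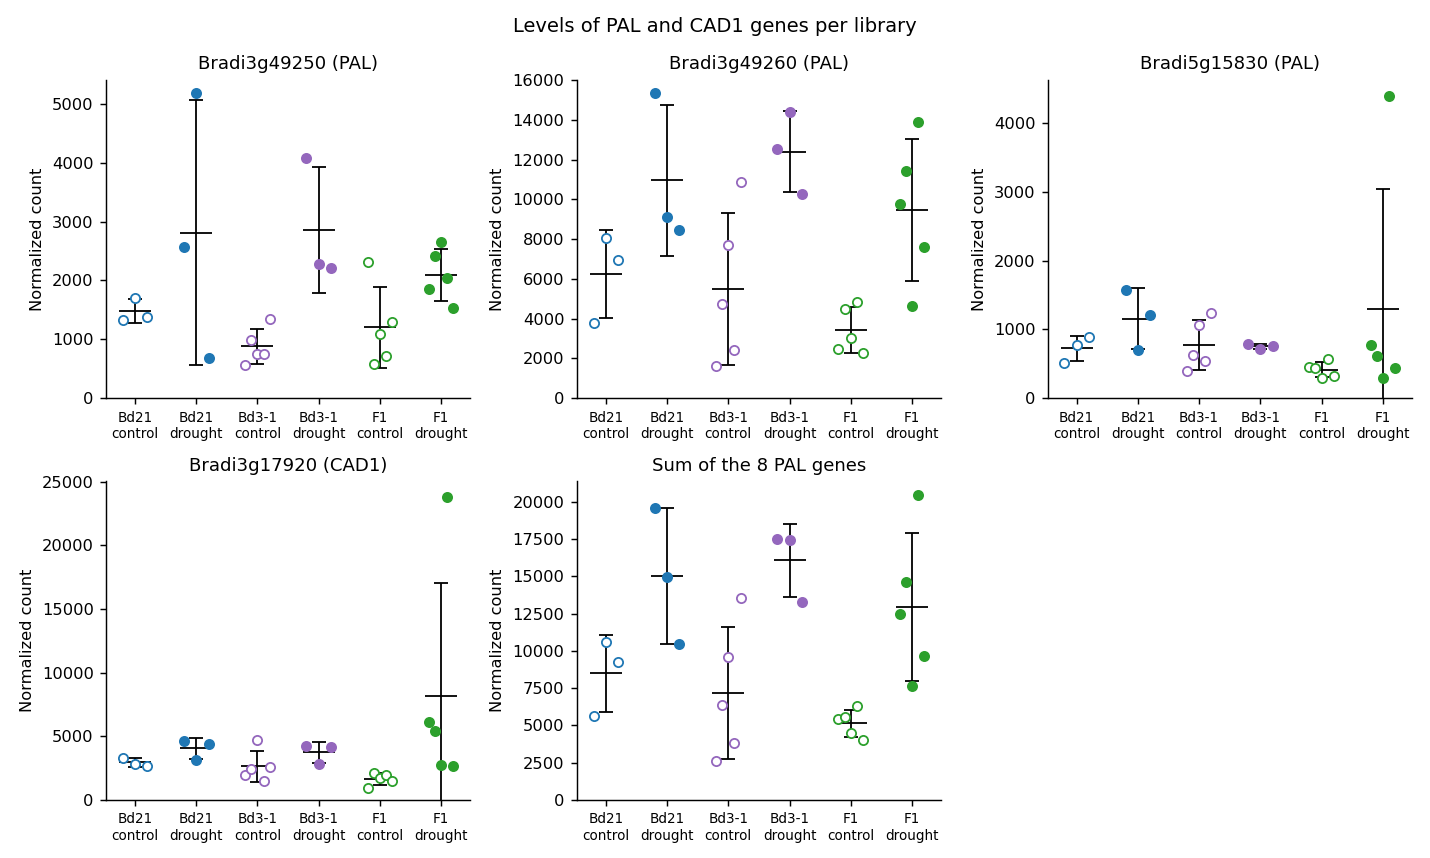
Normalized count (vertical axis, linear from 0) of the 3 most counted PAL genes, CAD1 and the sum of the 8 PAL genes in the 6 groups, with open points for control plants, filled points for drought plants, and bars for the mean ± SD (ended at 0). F1 drought replicate 4 stands apart at 4388 for Bradi5g15830 and at 23806 for CAD1.

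In the F1, drought went with higher levels of some PAL genes and of CAD1. Bradi3g49260, Bradi5g15830 and CAD1 rose, 3 of the 6 tested genes, and none fell (edgeR quasi-likelihood test, Benjamini-Hochberg adjusted over 22629 genes). The same test called 14.9% of all genes tested as changed in this comparison and 7.58% as higher. At an unadjusted p under 0.05 the count was 4 of 6, where 27.3% of all genes passed. The median log2 change of the 6 was 1.14, beside 0.04 over all genes. Bradi3g49260 and Bradi5g15830 share reads, so their calls are not independent. Without F1 drought replicate 4, Bradi5g15830 was at 0.36 (adjusted p = 0.577) and was not called.

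In neither parent did any of the 6 pass. The test called 0 of 6 in Bd21, where 0.0972% of all genes were called, and 0 of 6 in Bd3-1, where 0.72% were. At an unadjusted p under 0.05 the counts were 0 in Bd21, where 8.75% of all genes passed, and 2 in Bd3-1 (Bradi3g49250 and Bradi3g49260), where 12.4% did. DESeq2 called 0 in Bd21 and 1 in Bd3-1. All 6 log2 changes were positive in Bd21 and 4 of 6 were in Bd3-1, with medians of 0.57 and 0.41. The difference between the responses was tested separately, and the F1 response was called different from the mean response of the parents for 0 of 6 genes.

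**Figure D3:**
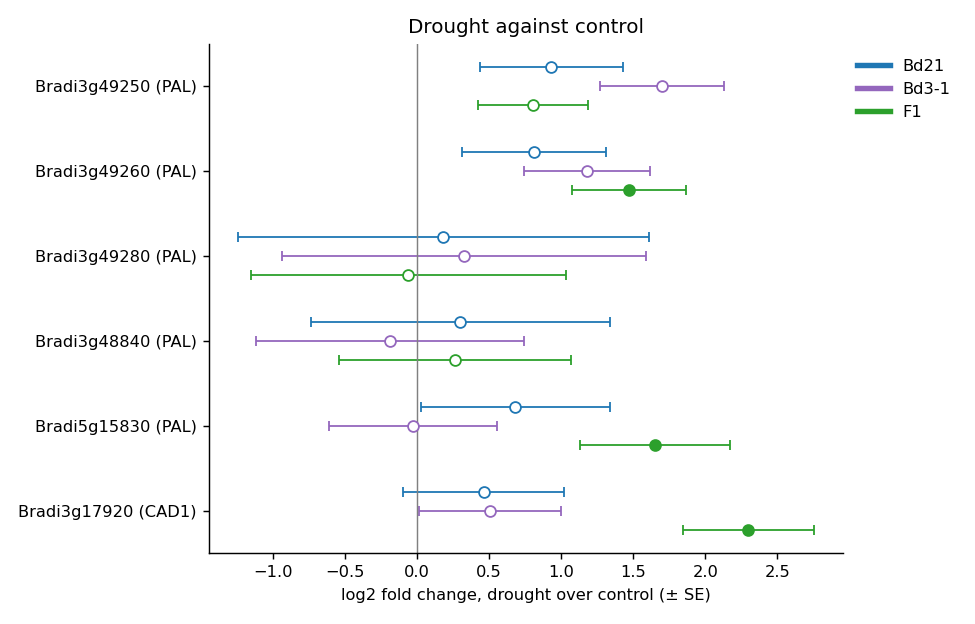
Log2 fold change of drought over control (horizontal axis, ± SE) of the 6 tested genes in Bd21, Bd3-1 and the F1, with filled points for an adjusted p under 0.05. The filled points are Bradi3g49260 at 1.47, Bradi5g15830 at 1.65 and CAD1 at 2.30, all in the F1.

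Bradi3g49260, the PAL gene with the most reads, was higher in drought in the F1. The F1 control plants had normalized counts of 2480, 4458, 3038, 4825 and 2284, and the F1 drought plants 9782, 11430, 4623, 13900 and 7594. The Bd21 plants had 3776, 8039 and 6932 in control and 15331, 9096 and 8452 in drought. The Bd3-1 plants had 1618, 4753, 7720, 2421 and 10857 in control and 12541, 14384 and 10279 in drought. In the F1, 4 of 5 drought plants lay above every control plant, the exception being replicate 3. The Bd21 groups, of 3 plants each, did not overlap, and in Bd3-1 control replicate 5 reached into the drought range. How many of all genes separate in this way was not counted, here or for the genes below. The log2 change in the F1 was 1.47 (SE 0.395, adjusted p = 0.0134), a 2.77-fold rise. It was 0.81 (SE 0.502, adjusted p = 0.691) in Bd21 and 1.18 (SE 0.437, adjusted p = 0.224) in Bd3-1. Without F1 drought replicate 4 the F1 change was 1.29 (adjusted p = 0.0430), and without this library and F1 control replicate 1 it was 1.18 and no longer passed (adjusted p = 0.112).

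Bradi3g49250, whose identifier neighbours the former, had its largest drought change in Bd3-1. The Bd3-1 control plants had 558, 984, 755, 757 and 1346, and the Bd3-1 drought plants 4089, 2273 and 2213. The Bd21 plants had 1335, 1706 and 1379 in control and 2572, 5181 and 685 in drought. The F1 plants had 2316, 583, 1093, 723 and 1299 in control and 1856, 2422, 2647, 2035 and 1529 in drought. The conditions did not overlap in Bd3-1, at 5 control and 3 drought plants. They overlapped in Bd21 through drought replicate 3 and in the F1 through control replicate 1. The log2 change in Bd3-1 was 1.70 (SE 0.430), a 3.25-fold difference that missed the threshold (adjusted p = 0.0636). It passed with DESeq2 (adjusted p = 0.00659) and when any of Bd21 drought replicate 2 or 3, Bd3-1 control replicate 5 or F1 control replicate 1 or 2 was left out, and was 1.35 (adjusted p = 0.329) without Bd3-1 drought replicate 1. The changes were 0.93 (SE 0.496, adjusted p = 0.622) in Bd21 and 0.80 (SE 0.383, adjusted p = 0.176) in the F1.

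Bradi5g15830, the PAL gene that the study places in a co-expression module of Bd21, passed the test in the F1 through a single plant. The F1 control plants had 447, 436, 294, 575 and 316, and the F1 drought plants 772, 607, 293, 4388 and 443. The Bd21 plants had 516, 766 and 881 in control and 1565, 695 and 1208 in drought. The Bd3-1 plants had 388, 628, 1061, 531 and 1237 in control and 784, 712 and 764 in drought. The conditions overlapped in each genotype, and in the F1 the drought plant of replicate 4 was 8.35 times the median of the other 4. The log2 change in the F1 was 1.65 (SE 0.518, adjusted p = 0.0330) with all plants and 0.36 (SE 0.318, adjusted p = 0.577) without F1 drought replicate 4. The call was also lost without F1 control replicate 1, 3 or 5 (adjusted p = 0.0688, 0.0798 and 0.0850). The change was 0.68 (SE 0.655, adjusted p = 0.825) in Bd21 and -0.03 (SE 0.582, adjusted p = 1) in Bd3-1.

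The sparsely counted Bradi3g49280 and Bradi3g48840 showed no called difference in any comparison of total counts. Bradi3g49280 ranged from 0 to 85.2 over the 24 libraries, with group means from 18.1 in Bd3-1 control to 49.1 in F1 control. Bradi3g48840 ranged from 0 to 107, with group means from 36.5 in Bd3-1 drought to 63.9 in F1 drought. Their drought changes had standard errors from 0.802 to 1.43 on the log2 scale.

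CAD1, which acts at the last step before the lignin alcohols, had the largest drought change of the 6 genes in the F1. The F1 control plants had 956, 2111, 1727, 1981 and 1485, and the F1 drought plants 6086, 5386, 2729, 23806 and 2647. The Bd21 plants had 3314, 2829 and 2685 in control and 4645, 3106 and 4401 in drought. The Bd3-1 plants had 1966, 2404, 4690, 1442 and 2613 in control and 4196, 2783 and 4173 in drought. Every F1 drought plant lay above every F1 control plant, at 5 plants each, while both parents, with 3 to 5 plants per group, overlapped between conditions. The share of all genes that separate so in the F1 was not counted. By edgeR the F1 response of CAD1 was not called different from the mean response of the parents (adjusted p = 0.526). The log2 change in the F1 was 2.30 (SE 0.453, adjusted p = 0.00173), a 4.92-fold rise. Without F1 drought replicate 4 it was 1.35 (SE 0.298, adjusted p = 0.00573) and still passed. The changes in Bd21 and Bd3-1 were 0.46 (SE 0.559, adjusted p = 0.873) and 0.50 (SE 0.493, adjusted p = 0.800).

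F1 drought replicate 4 was the highest of the 5 F1 drought plants for 4 of the 6 tested genes, a number that was not set against all genes. It had a total count of 12767706. CAD1 there was 5.87 times the median of the other 4 drought plants, Bradi3g49260 1.60 times and Bradi3g49250 0.951 times. Of the drought genes, the RAB18 genes Bradi1g37410 and Bradi3g43870 were 2.66 and 4.40 times that median in this plant, whereas the LEA gene Bradi1g51770 was 1.05 times and the ASR5 gene Bradi4g24650 0.804 times. The chlorophyll a-b binding protein gene Bradi4g31257 was lowest in it, at 802. The part of these levels in the results was not tested.

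**Figure D4:**
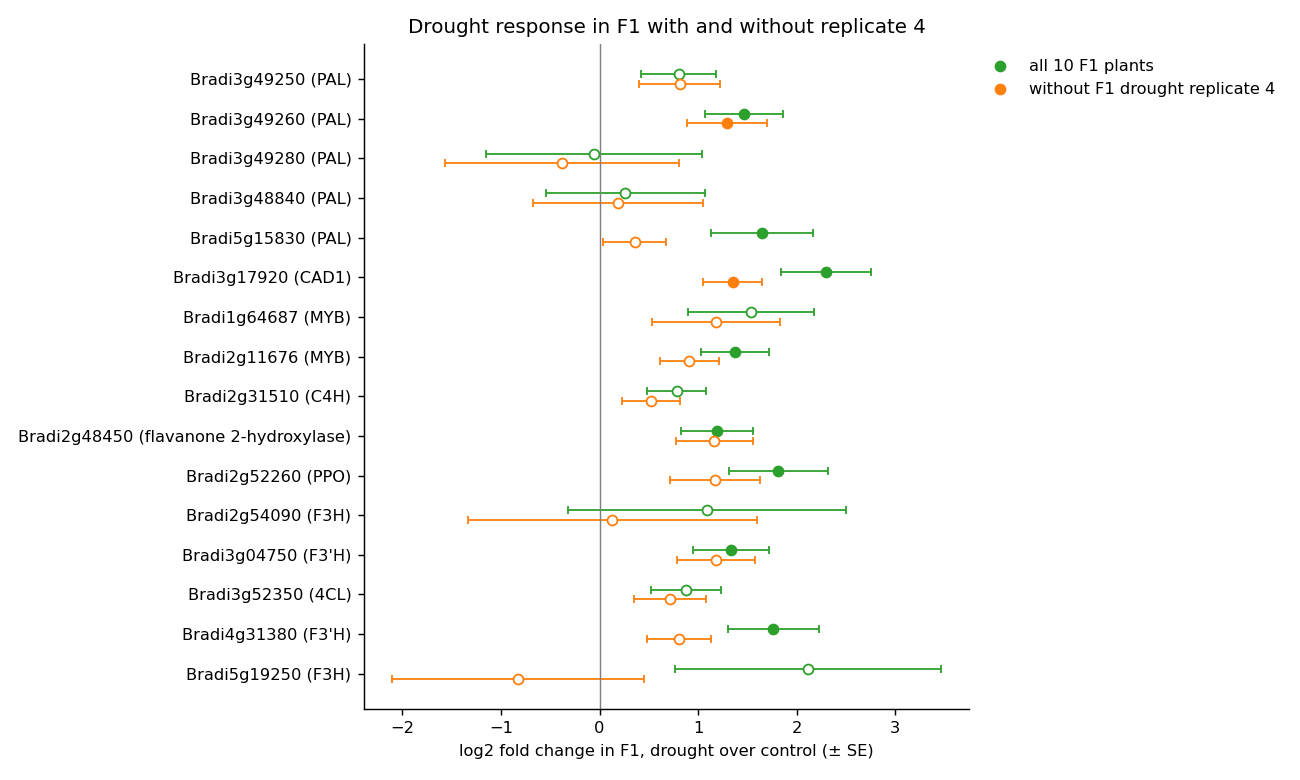
Log2 fold change of drought over control in the F1 (horizontal axis, ± SE) for the 6 tested genes and 10 genes of the pathway, with all 10 F1 plants and without F1 drought replicate 4, and with filled points for an adjusted p under 0.05. Without that plant Bradi5g15830 moves from 1.65 to 0.36, and only Bradi3g49260 at 1.29 and CAD1 at 1.35 stay filled.

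The accessions were compared to ask whether the genes differ between natural genotypes. In control, 0 of 6 genes differed between Bd3-1 and Bd21, where 2.51% of all genes were called, and in drought 0 of 6 differed, where 1.86% were. The count was 0 with DESeq2 in both conditions, and 0 at an unadjusted p under 0.05, where 11.5% of all genes passed in control and 9.74% in drought. The difference nearest to the threshold was that of Bradi3g49250 in control, at -0.74 (SE 0.433, adjusted p = 0.567), with 1473 ± 203 (SD, n = 3) in Bd21 and 880 ± 301 (SD, n = 5) in Bd3-1. In drought the means of that gene were 2813 ± 2258 (SD, n = 3) and 2859 ± 1066 (SD, n = 3).

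G × E between the accessions, the difference between their drought responses, was called for 0 of 6 genes at an adjusted p under 0.1, and for 0% of all genes. With edgeR 770 genes (3.4%) had an unadjusted p under 0.05, of which 0 were among the 6, and DESeq2 called 8 genes, again 0 among the 6. The estimates closest to passing were 0.77 (SE 0.657) for Bradi3g49250, with the larger response in Bd3-1, and -0.71 (SE 0.878) for Bradi5g15830, with the larger response in Bd21, both at an adjusted p of 1.00.

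The F1 was next compared with the mid-parent, the mean of both parents on the log2 scale. In control the estimates for CAD1, Bradi3g49260 and Bradi5g15830 were below 0, at -0.75 (SE 0.404), -0.78 (SE 0.361) and -0.85 (SE 0.474), and 0 of 6 genes passed, where 1.27% of all genes were called. At an unadjusted p under 0.05, where 17.3% of all genes passed, there was 1, Bradi3g49260 (adjusted p = 0.270). DESeq2 called 0.

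In drought, CAD1 was at 1.07 (SE 0.413, adjusted p = 0.217), with F1 plants between 2647 and 23806 and parental plants between 2783 and 4645. Without F1 drought replicate 4, the plant at 23806, CAD1 was at 0.12 (SE 0.285, adjusted p = 0.932) and Bradi5g15830 went from 0.47 to -0.82 (SE 0.313, adjusted p = 0.245). The test called 0 of 6 genes, where 1.85% of all genes were called. At an unadjusted p under 0.05 CAD1 was the 1 gene, where 14% of all genes passed, and DESeq2 called 0. Of the drought genes, the RAB18 genes Bradi1g37410 (4.73, adjusted p = 5.48e-05) and Bradi3g43870 (4.42, adjusted p = 0.00386) lay above the mid-parent in drought by edgeR. So did the ASR5 gene Bradi4g24650 (1.30, adjusted p = 0.00723), while the LEA gene Bradi1g51770 was at 0.60 (adjusted p = 0.711). The part of this difference in the results was not tested. As the F1 plants had a dry-down of their own, genotype and experiment cannot be told apart here.

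**Figure D5:**
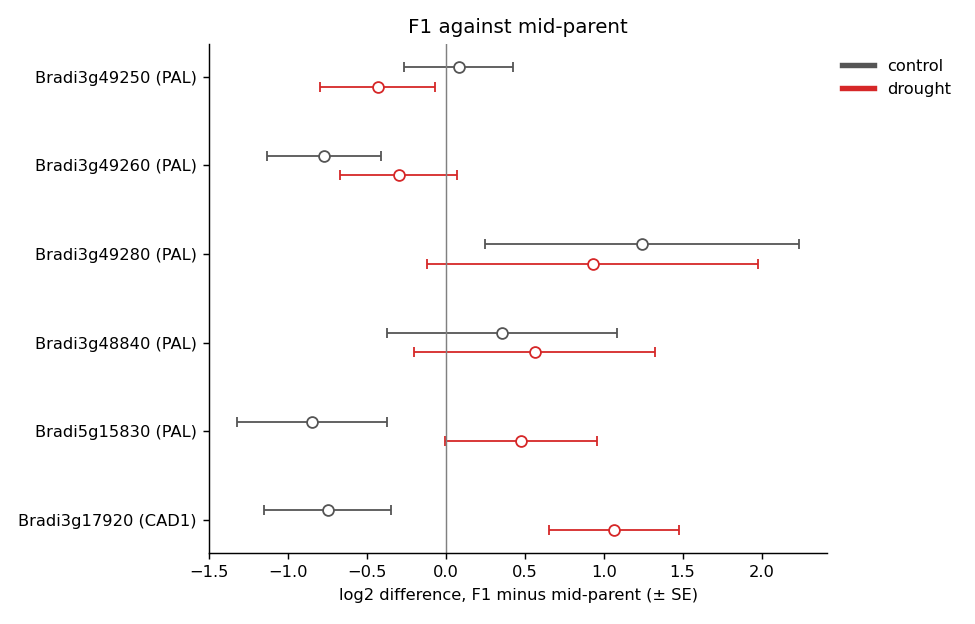
Log2 difference of the F1 from the mid-parent (horizontal axis, ± SE) for the 6 tested genes in control and in drought, all with open points since none had an adjusted p under 0.05. CAD1 lies at -0.75 in control and at 1.07 in drought.

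The drought response of the F1 was also set against the mean response of the parents. CAD1 had the largest estimate, a log2 difference of 1.82 (SE 0.579, unadjusted p = 0.00451, adjusted p = 0.526). Bradi5g15830 followed at 1.32 (SE 0.673, adjusted p = 0.693), Bradi3g49260 was at 0.47 (SE 0.512) and Bradi3g49250 at -0.51 (SE 0.503). Without F1 drought replicate 4, CAD1 was at 0.87 (SE 0.384, adjusted p = 0.854) and Bradi5g15830 at 0.03 (SE 0.410, adjusted p = 1.00). The test called 0 of 6 at an adjusted p under 0.1, where 0.0133% of all genes were called, DESeq2 called 0, and CAD1 was the 1 gene with an unadjusted p under 0.05, where 7.43% of all genes passed. A larger response of these genes in the F1 than in the parents was thus not shown.

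Other phenylpropanoid and flavonoid genes were taken from those that the study names, 10 in all, and each was tested. The study names them as members of its co-expression modules, and 7 are shared by the Bd21 modules that hold Bradi5g15830 and CAD1. Some of these modules are reported there as enriched for genes with a drought effect. They were built on an experiment that also supplied parental plants, so the list is not independent of these data. In the F1, 5 of 10 rose in drought and none fell, where 14.9% of all genes were called and 7.58% were called higher, and the median log2 change of the list was 1.35, beside 0.04 over all genes. The genes that passed were Bradi4g31380 (log2 change 1.77, adjusted p = 0.0116) and Bradi3g04750 (1.34, adjusted p = 0.0194), which encode flavonoid 3'-hydroxylases, and the flavanone 2-hydroxylase gene Bradi2g48450 (1.19, adjusted p = 0.0292). The others were Bradi2g52260, annotated as PPO (1.82, adjusted p = 0.0165), and the MYB transcription factor gene Bradi2g11676 (1.37, adjusted p = 0.00913). F1 drought replicate 4 was the highest F1 drought plant for 9 of the 10 genes, a number that was not set against all genes. Without this plant 0 of 10 passed. Bradi2g48450 was then at 1.17 (adjusted p = 0.0560), Bradi3g04750 at 1.18 (0.0579) and Bradi2g11676 at 0.91 (0.0539), close to the threshold. Bradi2g52260 was at 1.17 (0.105) and Bradi4g31380 at 0.80 (0.120). The number that passed was 3 without F1 control replicate 3 or without F1 control replicate 5. Bradi2g48450 also missed the threshold without F1 drought replicate 1 (adjusted p = 0.0682) or 2 (0.0624). Bradi4g31380 did not pass when only the F1 groups were fitted (adjusted p = 0.0625).

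The 5 genes were seen at these levels in the F1. Bradi2g52260 had 373 ± 57.4 in control and 1316 ± 1086 in drought (SD, n = 5 each), and 3218 in drought replicate 4. Bradi4g31380 had 584 ± 173 and 1986 ± 2212, and 5857 in that plant. Bradi3g04750 was at 253 ± 82.7 and 639 ± 220, and Bradi2g48450 at 541 ± 173 and 1233 ± 274 (SD, n = 5 each). Bradi2g11676 went from 353 to 741 in control plants and from 779 to 2577 in drought plants. C4H (Bradi2g31510) and 4CL (Bradi3g52350), the steps next to PAL, had log2 changes of 0.78 (adjusted p = 0.0875) and 0.88 (adjusted p = 0.0986). The remaining genes of the list, Bradi2g54090, Bradi5g19250 and Bradi1g64687, did not pass.

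In the parents, 0 of the 10 pathway genes passed between drought and control, by edgeR in either accession, where 0.0972% of all genes passed in Bd21 and 0.72% in Bd3-1. At an unadjusted p under 0.05, which 8.75% and 12.4% of all genes met, there was 1 in Bd21, Bradi2g11676, with 735 to 750 in control and 1485 to 2072 in drought (2.31-fold, adjusted p = 0.420, or 0.0207 with only the Bd21 groups fitted). There was also 1 in Bd3-1, Bradi2g48450 (log2 change 1.40, adjusted p = 0.105). It passed without Bd3-1 control replicate 3 (log2 change 1.85, adjusted p = 0.0201). DESeq2 called 0 of 10 in Bd21 and 1 in Bd3-1, Bradi2g48450 (adjusted p = 0.0266). The comparisons between accessions, of G × E and of the F1 with the parents gave 0 of 10 each by edgeR, and at most 1 by DESeq2. At an unadjusted p under 0.05 there were 0 and 2 of 10 between accessions in control and drought, where 11.5% and 9.74% of all genes passed, and 0 for G × E, where 3.4% passed. For the F1 against the mid-parent there were 4 in control and 1 in drought, where 17.3% and 14% passed, and there was 1 for the F1 response, where 7.43% passed. The gene that DESeq2 called was Bradi2g52260, lower in the F1 than the mid-parent in control (adjusted p = 0.0293). By edgeR it was at -1.65 (SE 0.474, adjusted p = 0.0818), and it passed without Bd3-1 control replicate 1 (adjusted p = 0.0310), Bd3-1 control replicate 4 (0.0307) or F1 drought replicate 4 (0.0454).

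Among themselves the genes did not all vary together. Over the 24 libraries, which share the drought and genotype groups, log2 normalized counts of Bradi3g49260 correlated with CAD1 (Pearson r = 0.72) and Bradi5g15830 (r = 0.71, for genes that share reads). Bradi5g15830 and CAD1 had r = 0.79, or 0.62 without F1 drought replicate 4. Bradi3g49250 had r = 0.54 with Bradi3g49260 and 0.10 for deviations from the group means, and 0.17 with Bradi5g15830. These values are descriptions.

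Of 21101 genes whose normalized count averaged 10 or more, ranked by correlation with the summed PAL level over the 24 libraries, Bradi2g33975 (r = 0.93) and Bradi1g28490 (r = 0.93) came first. Bradi2g52260 was at rank 16 (r = 0.89), C4H at rank 61 (r = 0.84) and CAD1 at rank 662 (r = 0.72). 4CL was at rank 2889 (r = 0.48). The other pathway genes lay between rank 232 for Bradi3g04750 (r = 0.78) and rank 5919 for Bradi2g54090 (r = 0.27). The summed level correlated with Bradi3g49260 alone at r = 0.98. These correlations include differences between the drought and genotype groups.

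Allele counts in the F1 were examined for allele-specific expression (ASE), where the allele of each parent is counted in the same plant. For 8 of the 9 genes both allele counts were equal in every library, as for 22251 of all 32439 genes (68.6%), so the columns hold no allele ratio for them. The study's criterion for alleles that can be told apart in the parents was applied to these counts, which need not give the study's own set of genes. It was met by 3403 genes and by none of the 9.

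Bradi3g48840 was the exception. Its allele counts were equal in 17 libraries, on a single allele in 5, and absent in 2. All 58 reads of F1 drought replicate 1 and all 116 of replicate 2 were placed on the Bd3-1 allele, while the other 3 F1 drought plants and all 5 F1 control plants were split equally. In Bd21 drought replicate 1 all 120 reads were placed on the Bd3-1 allele, which Bd21 does not carry, so the assignment went against the genotype. The mean log2 ratio of Bd3-1 to Bd21 counts, with a pseudocount of 1, was 2.55 ± 3.51 (SD, n = 5) in F1 drought and 0 in F1 control. It was above 0 in 2 of 5 drought plants and exactly 0 in the other 3, so no test of it was read.

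In the allele model, the cis term is the difference between the alleles in the F1, and trans is its change between parents and F1. The term cis by environment is the change of the allele difference with drought in the F1. At the study's threshold of an unadjusted p under 0.1, 31.6%, 11% and 12.2% of the 3404 genes fitted were called for these terms, and 16.2%, 0.353% and 0.0294% at an adjusted p under 0.1. Bradi3g48840 was fitted although it did not meet the criterion, and with equal columns in 17 libraries and reads placed against the genotype its terms were not read. Its trans estimate, -0.68 with all libraries, was 2.66 (SE 1.47) without Bd21 drought replicate 3.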

How the data were processed

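Leaf RNA of 24 plants was sequenced as stranded poly(A) libraries. The authors trimmed reads, built a transcriptome with both parental alleles, aligned reads to it with bowtie and divided them between alleles with emase. The tools listed in the submitters' processing notes were Trimmomatic 0.38, cutadapt 3.7, Bowtie 1.2.2, STAR 2.6.1b and GATK 4.2.5.0. The deposited values are estimated counts, not normalized, in 48 columns, 2 for each library, over 32439 genes. Reads that fit several genes or both alleles were divided by emase. The file does not say which column is which allele. The first column held 95.7% to 96.9% of the counts of genes with unequal columns in Bd21 libraries and 4.60% to 7.90% in Bd3-1 libraries, and was taken as the Bd21 allele.

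Both columns were summed and rounded. The 22629 genes detected (count above 0) in more than 10 libraries were fitted with edgeR 4.0.16 in R 4.3.3 (quasi-likelihood, TMM, 1 coefficient for each of 6 groups). P-values were adjusted by Benjamini-Hochberg over all genes, with a threshold of 0.05, or 0.1 for differences between responses. The mid-parent was the mean of the parental coefficients. Allele counts were fitted with terms for treatment, allele and generation. Scripts were tested on simulated data. Alternatives were DESeq2 1.42.0, other normalization and filters, a replicate block, fits of the groups compared, other pseudocounts, and fits without single libraries. Replicates are plants by their labels.

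The listed and pathway genes were chosen with earlier results of these data known. Of the 10 listed genes, 1 is not reported here, and all counts of genes leave it out. Values are given for the other 9, for pathway genes that passed in any comparison, and for the 2 genes most like the summed PAL level. Other pathway values were added after they were seen. No sequences or coordinates are given, since the reference table shares no identifiers with the counts.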

Additional observations from a re-analysis of the deposited data

Results flagged for a closer look

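In 2 of 21 sets of 5 plants (6 tested genes and the summed PAL level, each in Bd3-1 control, F1 control and F1 drought) 1 plant lay far from the others. Chance alone can flag a set, and how often it does was not measured. Both sets concern the same plant, and the sets are not independent, since the summed level contains the PAL genes. Bradi5g15830 was at 4388 in F1 drought replicate 4, where the next plant had 772 and the lowest 293. CAD1 (Bradi3g17920) was at 23806 in that plant, where the next had 6086 and the lowest 2647.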

How the results depend on the processing

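Of the 9 genes, the number called between drought and control in Bd3-1 went from 0 to 1 with DESeq2, without the 2 libraries of lowest total count, and without F1 control replicate 1 and F1 drought replicate 4 together (an alternative chosen after seeing the data). It was 0 to 1 over fits that each left out a single library. The gene was Bradi3g49250 each time. In the F1 the number went from 3 to 1 (CAD1) without both of those F1 libraries, and was 2 to 3 with single libraries left out. With only the F1 groups fitted, Bradi5g15830 (adjusted p = 0.113) was no longer called. For trans the number was 0 to 1 with single libraries left out, the 1 being Bradi3g48840 with its sign reversed. Of the total-count estimates of listed, pathway and module genes, 0 that passed changed sign. Among those that did not pass, Bradi5g19250 in the F1 went from 2.12 to -0.83 without F1 drought replicate 4. The cause was not tested.

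Replicate numbers did not pair the plants: deviations of same-numbered plants correlated between -0.149 and 0.101. With the number as a replicate block, Bradi5g15830 in the F1 was at 1.12 (adjusted p = 0.136), and the genes called among all tested went from 22 to 13 in Bd21, 163 to 83 in Bd3-1, 288 to 187 for the F1 against the mid-parent in control, 419 to 258 in drought, and 3 to 0 for the F1 response against the parents.

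Over all genes, DESeq2 called 220 in Bd21, 726 in Bd3-1, 936 and 718 between accessions in control and drought (569 and 422 by edgeR), 8 for G × E (0), 967 and 925 for the F1 against the mid-parent, and 50 for the F1 response. Only the groups compared gave 114 in Bd21, 52 in Bd3-1, 279 between accessions in drought and 156 for the mid-parent in control. Without a filter Bd21 had 41, and without the 2 libraries of lowest count it had 3. The F1 response had 0 under either of these or filterByExpr. In F1 drought 3370 genes became 2148 without F1 control replicate 1 and 1420 without both F1 libraries. The fit of only the groups compared was not run for the F1 response, which uses all 6 groups. With single libraries left out, the counts were 2 to 48 in Bd21, 36 to 321 in Bd3-1, 2148 to 3978 in the F1, 447 to 623 and 315 to 462 between accessions in control and drought, 0 to 2 for G × E, 151 to 606 and 252 to 469 for the F1 against the mid-parent, and 0 to 14 for the F1 response. Bradi3g49280 and Bradi3g48840 had at most 88 and 120 reads per library.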

Other observations

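The study lists 37 genes as shared by a pair of Bd21 co-expression modules that hold Bradi5g15830 and CAD1. The study built these modules on RNA of an experiment that also supplied parental plants of these libraries, so the list is not independent of them, and 7 of its genes are also pathway genes described in the report. Apart from Bradi5g15830 and CAD1 it holds 35 genes, of which 34 were tested. In the F1, 9 of 34 rose in drought and none fell, where 14.9% of all genes were called and 7.58% were called higher. The median log2 change of the 34 was 1.05 beside 0.04 over all genes. Without F1 drought replicate 4 the count was 2. In Bd21 and in Bd3-1, 0 of 34 passed by edgeR, with 2 and 1 at an unadjusted p under 0.05, where 8.75% and 12.4% of all genes passed, and DESeq2 called 0 and 1. The medians there were 0.54 and -0.16.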
